A study of Mus musculus with 8 samples.

Results

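The departure of combined treatment from additivity asks whether Ring1a knockdown and EZH1/2 inhibition, applied together, changed RNA by more or less than the sum of their separate effects. It was taken gene by gene as the combined group minus the inhibitor group minus the knockdown group plus the control group, and once within each of the libraries' 2 sets. A value of 0 means that the combined level is what the separate effects add up to, on log2 CPM a product of fold changes and on linear CPM (counts scaled to a common library size) a sum of amounts. The deposited table held 24062 genes, and 14393 of them passed the filter on low counts. The 1153 repeat subfamilies in the same table were left out of the description.

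RNA came from 1 line of immortalized mouse embryonic fibroblasts, 6KO iMEFs. In all 4 groups, control included, these cells are labelled as lacking Setdb1, Suv39h1, Suv39h2, Ehmt1 and Ehmt2, the H3K9 methyltransferase genes, and Ring1b (Rnf2), a PRC1 ubiquitin ligase. The combined group received an shRNA against Ring1a (gene symbol Ring1) and DS3201 at 1 uM for 7 days, and the inhibitor group received control shRNA with the same DS3201 treatment. The knockdown group received the Ring1a shRNA without DS3201, and the control group the control shRNA alone. Each shRNA went in by lentivirus with blasticidin selection, and each group had 2 libraries of polyadenylated RNA (n = 2), 1 in each set. The sets are called 20 and 28 after the prefix of the table's columns, and pairs of values below give set 20 and then set 28. Nothing says that the libraries of a group came from separate cultures, so each p-value reflects the spread of these libraries alone, which may be technical.

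PRC2, through EZH1 or EZH2, methylates H3K27, and PRC1, through RING1A or RING1B, ubiquitinates H2AK119. Both marks sit on silent genes, and each complex can read the mark that the other one writes. In fibroblasts they hold down genes of other lineages and stages. The series title names the joint action of these marks once H3K9 methylation is lost. 

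Total counts ran from 12738585 to 23688253 a library, so that 3 counts, the limit that a count of 0 allows, correspond to 0.122 to 0.265 CPM. These limits cover counting error only. Repeat subfamilies took 14.6% of the counts in the inhibitor library of set 28, which stands apart, and 8.59% to 12.95% in the other libraries. Departures in set 28 use that library and those in set 20 do not, and the list medians that move with it are also given without it. Defining fibroblast markers summed to 14278 to 16166 CPM in the combined group, 15431 to 17088 CPM in the inhibitor group, 20986 to 23799 CPM in the knockdown group and 22890 to 23306 CPM in the control group. Markers of neurons, muscle, epithelium, endothelium and blood summed to at most 343 CPM a library. The part of these marker levels in the departures was not tested. In bulk RNA, fewer cells of a type and less RNA per cell cannot be told apart.

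Ring1, the targeted gene (chr17, 34020792 to 34024680, mm10), was at 3.51 and 2.04 CPM in the combined group, 20.4 and 7.503 CPM in the inhibitor group, 4.51 and 1.41 CPM in the knockdown group and 20.2 and 9.73 CPM in the control group. Both libraries with the shRNA and DS3201 lay below both with DS3201 alone, and both with the shRNA alone lay below both controls. Its log2 departure was -0.36 in set 20 and 0.87 in set 28, with counting standard errors of 0.25 and 0.44. These departures are within or close to counting error, so they do not show that the depth of the knockdown changed with DS3201. Ezh2, the main EZH enzyme of dividing cells, had departures of 0.13 and -0.53, and Ezh1, its paralogue, of 0.092 and 0.17. Rnf2 had -0.24 and -0.36 and Setdb1 -0.59 and -0.40, lower than additive in both sets. The genes labelled as lacking were counted in every library, Ehmt2 at 98.9 to 217 CPM, Suv39h1 at 54.2 to 89.9 CPM, Ehmt1 at 35.7 to 51.0 CPM, Rnf2 at 26.4 to 89.0 CPM, Suv39h2 at 12.2 to 21.3 CPM and Setdb1 at 4.33 to 13.1 CPM. Counts per gene do not show which exons were read, so they do not check these labels. Of the 9 perturbed genes, 2 (22.2%) were above additive in both sets, 3 (33.3%) below in both and 4 of opposite sign, and none passed the test. Over all genes tested 22.2% were above in both sets and 25.9% below in both.

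No gene departed from additivity beyond the spread between libraries on the log2 scale. By edgeR's quasi-likelihood test with Benjamini-Hochberg adjustment, 0 of 14393 genes were higher and 0 lower (each 0% called), with or without the set as a block. At an unadjusted p under 0.05 there were 9 higher (0.0625%) and 10 lower (0.0695%), and with the block 29 higher (0.201%) and 103 lower (0.716%). DESeq2 called 0 genes as well, with 11 higher (0.0764%) and 6 lower (0.0417%) at an unadjusted p under 0.05. With 2 libraries a group these counts do not show that the effects add: they show that no departure stood out from the difference between the libraries.

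On the linear CPM scale limma called 0 genes higher and 0 lower at an adjusted p under 0.05 (each 0% called). The unadjusted counts leaned upward, with 98 genes higher (0.681%) and 10 lower (0.0695%), and with the block 169 higher (1.17%) and 54 lower (0.375%). That lean turned downward without the inhibitor library of set 20 and was nearly absent without that of set 28, so it was not stable. All 98 were above additive in both sets, 69 of them also on the log2 scale. They were chosen by p in these same libraries, so that the shared sign follows largely from the choice. In 81 of the 98 DS3201 with control shRNA was at least 1 log2 unit above control in both sets. Among genes of at least 5 CPM in each set, 7.33% in set 20 and 16.6% in set 28 had so large an effect, in either direction. The 98 were genes of low level, with a median of 4.81 CPM in their highest library. Without the combined library of set 20, 6 genes passed as higher, and without the inhibitor library of set 28 the block fit, an alternative chosen after seeing the data, passed 1 as lower.

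The sets did not share their departures across the transcriptome. On the log2 scale 6912 of 14380 genes with a departure other than 0 had the same sign in both sets, 48.1% (95% Clopper-Pearson interval 47.2% to 48.9%, which treats genes as independent and they are not). Across genes the departures of the sets had a Pearson r of 0.039 and a Spearman rho of -0.012. On the linear scale 49.0% had the same sign (48.2% to 49.8%), with r of -0.00020 and rho of -0.073. All genes of a set share its 4 libraries and their depths, so these are descriptions of 2 sets. The plot of set 28 against set 20 shows a cloud with no slope.

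**Figure D1:**
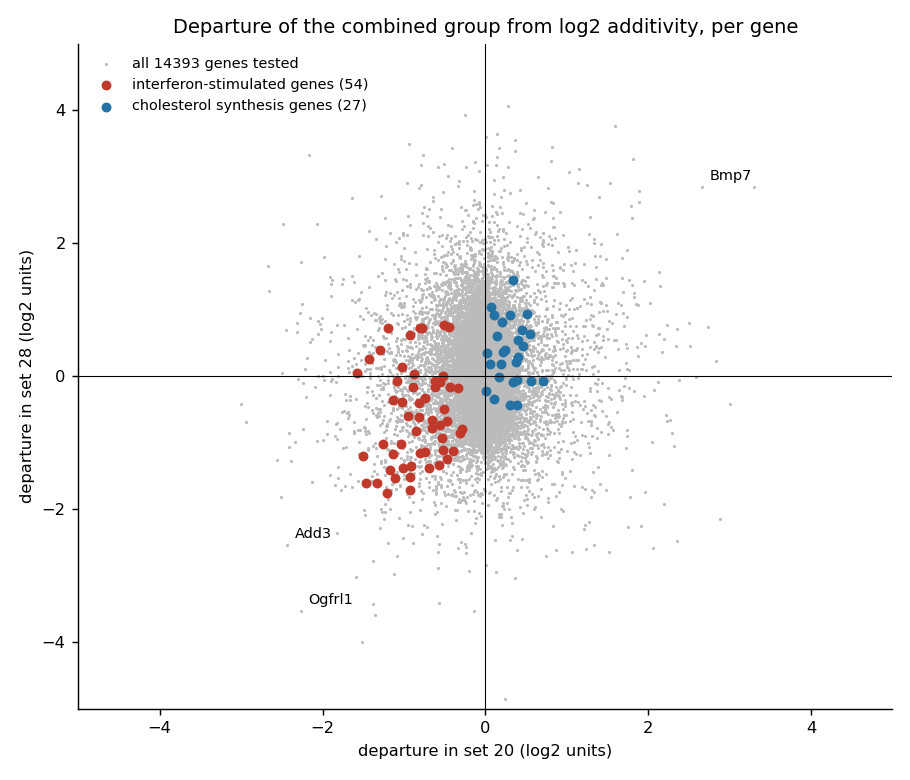
Log2 departure of the combined group from additivity in set 28 (vertical axis, log2 units) against set 20 (horizontal axis, log2 units), 1 point a gene. The sets share no trend (r of 0.039), the cloud is taller than wide, and the interferon-stimulated genes lie below 0 in set 20, most of them in set 28 too.

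Large departures were also few in common. In set 20 774 genes (5.38%) departed by at least 1 log2 unit, and in set 28 2378 genes (16.5%). Both sets put 73 genes at least 1 unit above additive (0.507%), 97 at least 1 unit below (0.674%) and 104 at least 1 unit away with opposite signs (0.723%). Of the 170 genes that shared a direction, 71 had a library with 0 counts, and 60 of the 73 higher genes stayed under 5 CPM in every library. Departures beyond 1.96 counting standard errors in both sets were found for 2 of the 73 and 37 of the 97. Among the 10714 genes that reached 5 CPM in each set, 6 were at least 1 unit higher in both, 31 lower in both and 9 opposite.

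Counting error alone was smaller than many departures. Separate libraries also vary beyond it, so that this is a description of its size and no test of the difference between the sets. Among genes of at least 5 CPM, 29.2% in set 20 and 67.5% in set 28 departed by more than 1.96 of their counting standard error. The 2267 genes that did so in both sets comprised 421 higher in both, 560 lower in both and 1286 with opposite signs. The 100 genes most above additive in set 20 had a median log2 departure of 0.85 there and -0.13 in set 28, where 45 were above additive. The 100 most below it in set 20 had a median of -1.23 there and -0.38 in set 28, where 67 were below. Chosen in set 28 and read in set 20, 39 of the top 100 and 74 of the bottom 100 kept their sign.

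The departures of set 28 were the wider ones, with an SD of 0.644 log2 units against 0.292 in set 20 among genes of at least 5 CPM. The wider spread lay in the libraries with DS3201. In set 28 the Ring1a shRNA difference had an SD of 0.635 with DS3201 and 0.322 without it, and in set 20 it had 0.297 with DS3201 and 0.315 without it. With DS3201 10.9% of these genes differed by at least 1 unit between the shRNAs in set 28 and 0.868% in set 20. The inhibitor library of set 28 enters that difference, and its part in the width was not tested. The histograms of the shRNA difference show 1 broad distribution beside 3 narrow ones.

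**Figure D2:**
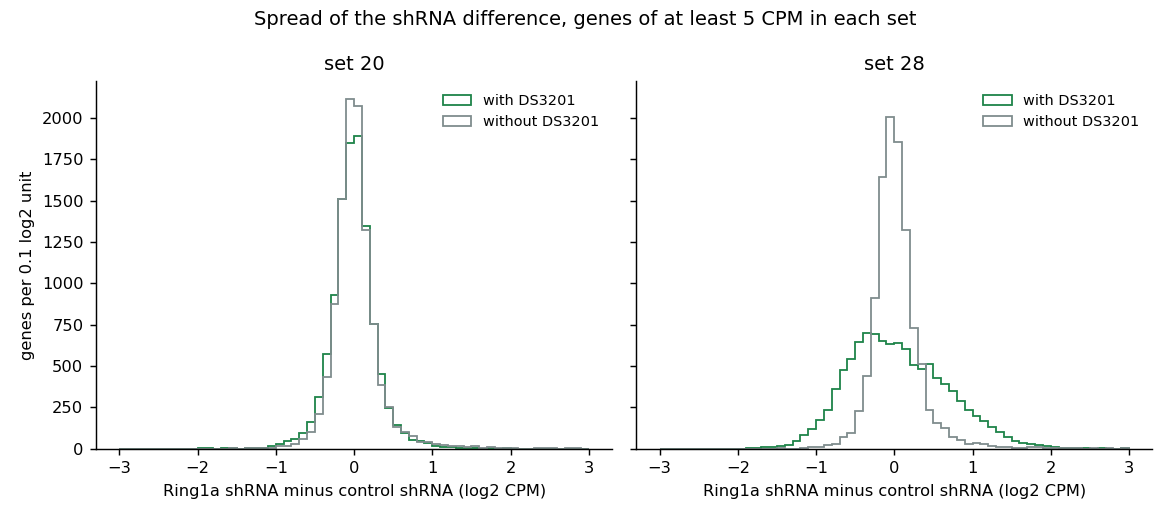
Distribution of the Ring1a shRNA minus control shRNA difference (horizontal axis, log2 CPM) with and without DS3201 in each set, as genes per bin (vertical axis), for 10714 genes of at least 5 CPM in each set. The distribution with DS3201 in set 28 (SD 0.635) is broader than the other distributions (SD 0.297 to 0.322).

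The genes furthest above additive in both sets on the log2 scale were Olfm1, Ang, Bend4, Iqgap2, Limch1, Vwf, Vat1l and Ldhb, taken among genes of at least 5 CPM in each set and ranked by the smaller departure. None passed the test, and genes such as Olfm1 and Iqgap2 had few or 0 counts without DS3201. Iqgap2, a scaffold protein of the actin cytoskeleton (chr13, 95627177 to 95892280), was at 31.9 and 19.09 CPM in the combined group, 14.4 and 12.6 CPM in the inhibitor group, 0.203 and 0.0673 CPM in the knockdown group and 0.190 and 0.201 CPM in the control group. The combined library was the highest of its set in both sets, and the departure was 1.08 in set 20 and 1.38 in set 28, or 17.5 and 6.599 CPM (fitted log2 departure 1.32 ± 0.72 SE over 2 libraries a group, adjusted p = 1.00 by edgeR). Vwf, the von Willebrand factor of endothelium (chr6, 125552948 to 125686679), was at 12.3 and 17.6 CPM in the combined group, 7.13 and 14.3 CPM in the inhibitor group, 7.96 and 9.55 CPM in the knockdown group and 9.50 and 15.8 CPM in the control group, with departures of 1.03 and 1.01. Olfm1, a secreted olfactomedin, had 1.43 and 1.41, and Ang, a secreted ribonuclease, 1.23 and 1.43. Olfm1 had 0 and 1 counts in the knockdown and control libraries of set 28, and its departures were 1.51 and 2.48 with a prior count of 0.5 and 1.32 and 1.04 with 5. Of 89 genes named by rule, 4 turned sign in a set and 28 moved by more than 1.5 times in a set between these prior counts. Ldhb, a lactate dehydrogenase chain, was eighth at 1.69 and 0.96, and the next in rank was Rn45s.

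Add3, Ogfrl1, Pi15, Tchh, Fst, Mx2, Scn7a and Ifi44 were furthest below additive by the same rule, and none of them passed either. Add3, the gamma-adducin that links spectrin to actin (chr19, 53140443 to 53247326), was at 49.3 and 40.3 CPM in the combined group, 37.1 and 44.6 CPM in the inhibitor group, 1.75 and 4.71 CPM in the knockdown group and 0.142 and 0.805 CPM in the control group. Both treatments alone and the combination lay above control in both sets, and the combined level fell short of the product of the separate fold changes, with departures of -2.43 in set 20 and -2.53 in set 28 (fitted -2.68 ± 0.99 SE over 2 libraries a group, adjusted p = 1.00 by edgeR). On the CPM scale they were 10.6 and -8.20 CPM, above the sum in one set and below it in the other. Ogfrl1 (chr1, 23366424 to 23383201) had the smallest p of all genes, with adjusted p = 1.00 by edgeR and 0.990 with the block. It was at 14.8 and 17.7 CPM in the combined group, 10.9 and 19.2 CPM in the inhibitor group, 0.650 and 1.14 CPM in the knockdown group and 0 and 0 CPM in the control group, with 0 counts in both controls. Its log2 departure of -2.26 and -3.53 hangs on those zeros, since it was -4.08 and -5.43 with a prior count of 0.5 and -1.25 and -2.40 with 5.

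Pi15, a secreted peptidase inhibitor, had log2 departures of -2.13 and -1.58 and CPM departures of -12.1 and -4.50 CPM, below additive on both scales. Fst encodes follistatin, the antagonist of activins, and had -1.91 and -1.48. Tchh, the trichohyalin of hair follicles, had -1.49 and -2.01 on the log2 scale but 6.49 and 7.14 CPM on the linear one. With 0 counts of Tchh and 1 of Fst in the control library of set 20, a prior count of 5 gave -0.49 and -1.62 for Tchh and -1.09 and -1.44 for Fst. Signs that turn with the scale were found in 1194 genes (8.30%) of set 20 and 721 genes (5.01%) of set 28. In set 20 854 of them were below the product and above the sum, and in set 28 449. Most genes thus had 1 direction in a set whichever scale was read.

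Fbln1, Shank3, Bmp7 and C1ql1 had the smallest p on the linear scale, a choice made after their values were seen. Fbln1, the matrix protein fibulin 1, was at 38.7 and 38.7 CPM in the combined group, 27.1 and 24.5 CPM in the inhibitor group, 1.18 and 0.471 CPM in the knockdown group and 0.380 and 0.604 CPM in the control group. The combined library was the highest of its set, at 10.7 and 14.3 CPM above the sum, while the log2 departures were -0.87 and 0.95. Bmp7, a bone morphogenetic protein, did not reach 5 CPM in each set and so was not ranked above. It departed by 2.51 and 2.90 CPM and by 2.66 and 2.84 log2 units. The log2 values were 3.99 and 3.10 with a prior count of 0.5 and 2.04 and 2.46 with 5. C1ql1, a secreted C1q-related protein, departed by 5.11 and 5.96 CPM and -1.45 and -0.16 log2 units. Its log2 departures depend on few counts without DS3201, being -2.12 and -0.85 with a prior count of 0.5 and -0.78 and 0.41 with 5, so that the sign in set 28 turns. Cp, ceruloplasmin, among the smallest p of the block fit on the log2 scale, was at 53.9 and 31.2 CPM in the combined group, 72.7 and 49.9 CPM in the inhibitor group, 18.7 and 8.21 CPM in the knockdown group and 10.8 and 4.09 CPM in the control group, with departures of -1.22 and -1.66 and adjusted p = 0.990 by edgeR with the block. The bars of observed and expected levels set both expectations side by side for 6 of these genes. None of them passed by limma.

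**Figure D3:**
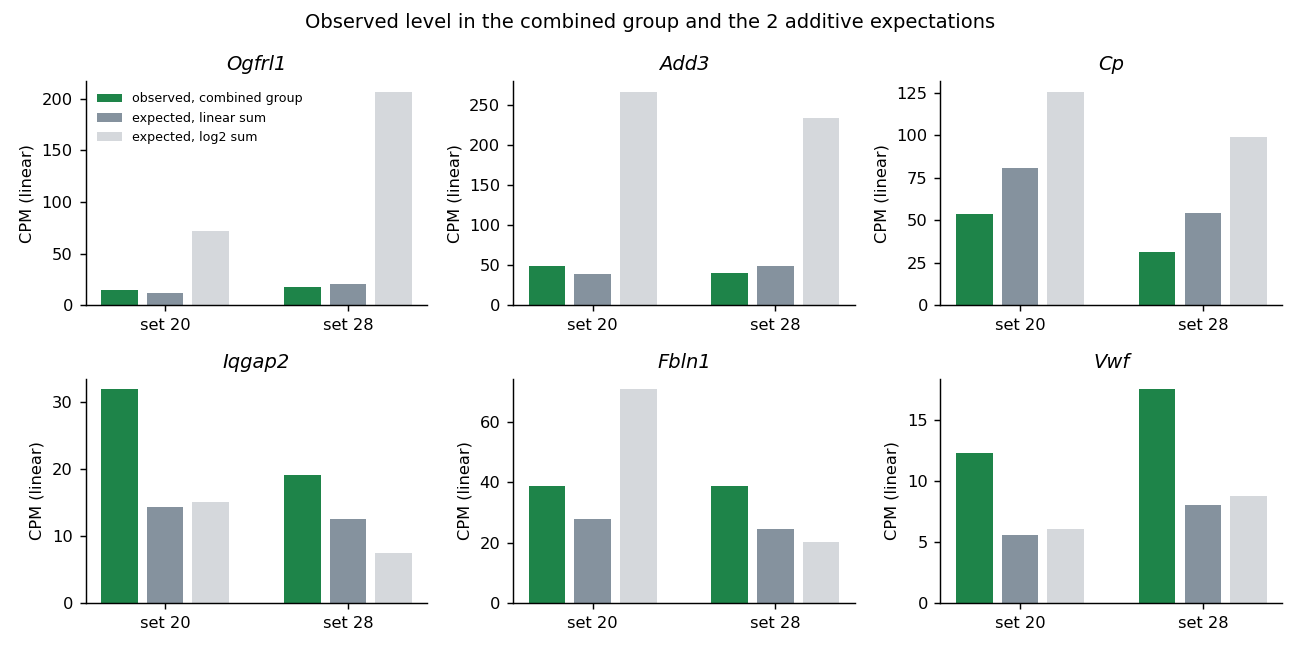
Level in the combined group (green) beside the linear sum (dark grey) and the log2 sum (light grey) expected from the separate effects, as bars of linear CPM (vertical axis) for 6 genes in each set. Ogfrl1, Add3 and Cp lie below the log2 sum in both sets and Iqgap2 and Vwf above both expectations, while Fbln1 lies above the linear sum in both sets and on opposite sides of the log2 sum.

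In amounts, the genes furthest above additive in both sets included Rn45s, Eef1a1, Vim, Actb, Flna, Actg1 and Fn1, transcripts of very high level that code for cytoskeleton and matrix apart from the elongation factor Eef1a1 and the ribosomal precursor Rn45s. Actb, beta-actin (chr5, 142903115 to 142907976), was at 3513 and 4225 CPM in the combined group, 3201 and 3393 CPM in the inhibitor group, 3354 and 3877 CPM in the knockdown group and 3370.3 and 4181 CPM in the control group. Within each set the combined library exceeded the inhibitor library of that set, and the departure was 329 and 1135 CPM, only 0.14 and 0.43 log2 units. Flna, the actin-crosslinking filamin A, had log2 departures of 0.21 and 0.62 and CPM departures of 287 and 811 CPM. Rn45s, whose reads in a polyadenylated library are a sign of rRNA carry-over, was at 4972 and 1835 CPM in the combined group, 2756 and 494 CPM in the inhibitor group, 1269.8 and 1339 CPM in the knockdown group and 2343 and 671 CPM in the control group. Its part in the other departures was not tested.

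Colec10, Fstl1, Nov, Fth1, Lox, Postn, Sepp1 and B2m were furthest below additive in amounts. B2m, the light chain of MHC class I (chr2, 122147687 to 122153082), was at 946 and 1319.7 CPM in the combined group, 981 and 2503 CPM in the inhibitor group, 1267 and 1281 CPM in the knockdown group and 1211 and 1112 CPM in the control group, with departures of -89.8 and -1352 CPM. Postn, the matrix protein periostin of fibroblasts, was at 160.1 and 311 CPM in the combined group, 232 and 729.9 CPM in the inhibitor group, 549 and 935 CPM in the knockdown group and 503 and 1160.1 CPM in the control group, with log2 departures of -0.66 and -0.92. Lox, the enzyme that crosslinks collagen, had -0.28 and -0.62 and Fstl1, a secreted follistatin-like protein, -0.24 and -0.24. The eighth and ninth genes in rank differed little at either end of the linear ranking, with smaller departures of 206 CPM for Fn1 and 196 CPM for Ahnak, and of -89.8 CPM for B2m and -75.5 CPM for Tnc.

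Opposite departures of at least 1 log2 unit were found in 9 genes of at least 5 CPM, against 31 lower and 6 higher in both sets. At 2 units or more there were 0 opposite, 2 lower in both and 0 higher in both. Lonrf3, Pkdcc, Serpini1, Cldn15, Mgam and Trim62 had the largest, ranked by the smaller of the 2. Lonrf3, a RING finger protein, was at 19.6 and 15.4 CPM in the combined group, 6.96 and 11.3 CPM in the inhibitor group, 0 and 0.404 CPM in the knockdown group and 0 and 0 CPM in the control group. Its combined library was the highest in both sets, yet the log2 departure was 1.48 in set 20 and -1.71 in set 28. On the CPM scale both sets were above the sum (12.6 and 3.68 CPM). The size of the log2 departures hangs on few or 0 counts, being 1.49 and -3.44 with a prior count of 0.5 and 1.45 and -0.81 with 5. Pkdcc, a secreted tyrosine kinase, had -1.42 and 2.19, and Serpini1, neuroserpin, 1.29 and -1.82. Mgam had 3.03 and -2.26 with a prior count of 0.5 and 0.84 and -0.82 with 5. All of these named genes kept opposite signs with both prior counts.

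Interferon-stimulated genes lay below additive expectation in set 20 and, for the most part, in set 28. Of the 54 tested, 42 (77.8%) were below in both sets, 0 above in both and 12 of opposite sign, where over all genes tested 25.9% were below in both and 22.2% above in both. The median log2 departure was -0.82 in set 20 and -0.67 in set 28, against -0.018 and -0.0087 over all genes tested. All 54 were below additive in set 20 and the 12 exceptions, Bst2, Ifi27, Psmb8 and Tap1 among them, were above it in set 28. In amounts 48 (88.9%) were below in both sets and 0 above in both, against 23.9% and 25.05% of all genes. No member passed the test. With the block 7 of the 54 (12.96%) had an unadjusted p under 0.05, against 132 (0.917%) of all genes. The share was as high among p53 targets and CDK inhibitors (4 of 30, 13.3%), and it was 7.89% among genes of the 2-cell embryo (3 of 38).

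Of these 54 genes 10 were lower than additive by at least 1 log2 unit in both sets (18.5%, against 0.674% of all genes tested), and they made up 10.3% of the 97 such genes. They were Ifit3, Oas2, Oasl2, Mx1, Mx2, Ifi44, Iigp1, Gbp3, Gbp5 and Gbp7. The count depended on the scaling, with 8 that low in both sets when libraries were scaled by their totals alone and 7 with DESeq2 size factors. The Ifit, Oas and Mx proteins act against viral RNA and viral particles, and Iigp1 and the Gbp proteins are interferon-induced GTPases. Ifit3 and the Oas, Mx and Gbp genes have close paralogues, among which the counting could have split reads.

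Promoters of 3 of them are shown because members of the list shared a direction, each as the 250 bases upstream of the gene's start in the gene's own orientation, from RefSeq on GRCm38.p6 (mm10). Capitals mark matches of GAAANNGAAA, the core of the element that interferon-induced factors bind, read on both strands with overlapping matches counted.
Ifit3, chr19:34583279-34583528, + strand: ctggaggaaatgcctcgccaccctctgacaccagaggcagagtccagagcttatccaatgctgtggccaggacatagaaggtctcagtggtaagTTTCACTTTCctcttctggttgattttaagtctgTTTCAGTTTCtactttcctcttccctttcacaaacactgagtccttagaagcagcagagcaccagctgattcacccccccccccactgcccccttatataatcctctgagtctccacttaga
Gbp7, chr3:142530086-142530335, + strand: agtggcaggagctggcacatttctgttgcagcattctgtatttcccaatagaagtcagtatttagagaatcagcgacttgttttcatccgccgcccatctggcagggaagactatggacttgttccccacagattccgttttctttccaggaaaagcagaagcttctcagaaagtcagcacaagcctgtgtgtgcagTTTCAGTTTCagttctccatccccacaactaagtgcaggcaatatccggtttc
Ifi44, chr3:151749911-151750160, - strand: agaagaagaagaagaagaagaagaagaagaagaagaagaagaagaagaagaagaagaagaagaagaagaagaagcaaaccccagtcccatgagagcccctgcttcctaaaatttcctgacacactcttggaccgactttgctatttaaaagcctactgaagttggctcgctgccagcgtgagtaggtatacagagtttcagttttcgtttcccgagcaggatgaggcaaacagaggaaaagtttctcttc
Ifit3 held 2 matches, at -156 and -122 from the start, and Gbp7 held 1 at -53. Ifi44 held no match in these letters. Of the 10625 tested genes with a promoter sequence, 340 (3.2%) held the motif, and of the 39 interferon-stimulated genes with one 18 (46.2%). Among the 6 of the 10 lowest genes with a promoter in the table, 4 held it. A match here is a description of the sequence and does not show binding.

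Ifit3, an antiviral protein of the Ifit family, was at 22.0 and 3.19 CPM in the combined group, 68.3 and 9.80 CPM in the inhibitor group, 110.3 and 43.1 CPM in the knockdown group and 147 and 38.2 CPM in the control group. In both sets the library with shRNA and DS3201 was the lowest and the inhibitor library the next. The log2 departure was -1.21 in set 20 and -1.76 in set 28. Mx2 (chr16, 97536081 to 97560901) was at 5.396 and 1.79 CPM in the combined group, 10.5 and 2.65 CPM in the inhibitor group, 19.08 and 17.8 CPM in the knockdown group and 13.3 and 8.45 CPM in the control group, with departures of -1.47 and -1.60 (fitted -1.64 ± 1.04 SE over 2 libraries a group, adjusted p = 1.00 by edgeR). Gbp3 was at 26.5 and 4.60 CPM in the combined group, 50.7 and 5.38 CPM in the inhibitor group, 46.2 and 61.1 CPM in the knockdown group and 43.1 and 35.3 CPM in the control group. Its departures were -1.03 and -1.01, and in set 28 both libraries with DS3201 were far below both without it.

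Ifit1, an antiviral protein of the same family, was at 192 and 26.9 CPM in the combined group, 367 and 46.5 CPM in the inhibitor group, 278 and 128 CPM in the knockdown group and 317 and 101 CPM in the control group, with log2 departures of -0.75 and -1.14. Rsad2, the antiviral protein viperin, was at 72.8 and 13.2 CPM in the combined group, 102 and 17.4 CPM in the inhibitor group, 129 and 78.2 CPM in the knockdown group and 95.0 and 31.5 CPM in the control group, with -0.93 and -1.70. Isg15, a ubiquitin-like modifier, had -0.89 and -0.16, and Cxcl10, a chemokine, -0.40 and -1.13. Irf9, a subunit of the interferon-activated transcription complex, had -0.61 and -0.16. Tap1, a peptide transporter of the MHC class I pathway, was among the members of opposite sign. It was at 71.9 and 39.8 CPM in the combined group, 114 and 19.4 CPM in the inhibitor group, 75.8 and 53.9 CPM in the knockdown group and 63.0 and 40.6 CPM in the control group, with -0.93 and 0.62, and in set 28 its combined library lay above the inhibitor library.

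**Figure D4:**
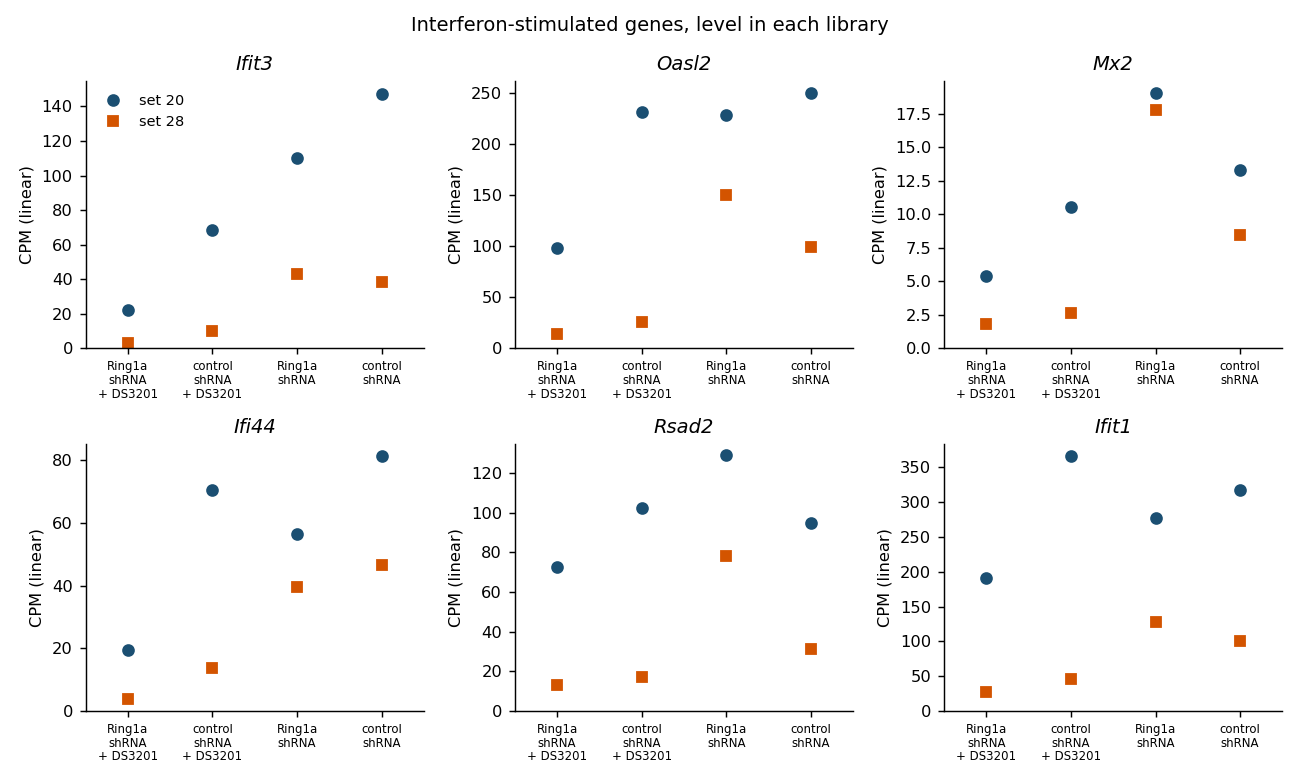
Level (vertical axis, linear CPM) of 6 interferon-stimulated genes in each library, by group along the horizontal axis, with circles for set 20 and squares for set 28. The combined library is the lowest of its set in each panel, and in set 28 both libraries with DS3201 lie below both without it.

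The same departure had a different make-up in each set. The median effect of the Ring1a shRNA on the list was -0.79 with DS3201 and -0.014 without it in set 20, and -0.23 with DS3201 and 0.36 without it in set 28. DS3201 with control shRNA shifted the median by -0.046 in set 20 and -1.37 in set 28, and with Ring1a shRNA by -0.77 and -1.83. In set 20 the median was thus low in the combined library alone, and in set 28 it was low with DS3201 under either shRNA and high with the shRNA alone. In the block fit to all libraries the median was -0.83, with 53 of 54 below additive. It was -0.0046 without the inhibitor library of set 20, with 27 of 54 below, and -0.24 without the knockdown library of set 28, with 40 below. Without the inhibitor library of set 28 it was -1.23 with all 54 below, and with another library left out it lay between -1.23 and -0.56. The direction of this fit to all libraries thus rests on the inhibitor library of set 20, while the departure within set 28, which does not use that library, had its median of -0.67 with 42 of 54 below.

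Cholesterol synthesis genes leaned the other way. Of 27 tested, 18 (66.7%) were above additive in both sets (22.2% of all genes tested) and 0 below in both, with medians of 0.31 and 0.35, and none passed the test. The median effect of the Ring1a shRNA was -0.31 with DS3201 and -0.55 without it in set 20, and 0.13 with DS3201 and -0.10 without it in set 28. The list also held Fasn, the fatty acid synthase (chr11, 120805958 to 120825166), which makes fatty acids and not cholesterol. Fasn was at 327 and 358 CPM in the combined group, 302 and 193 CPM in the inhibitor group, 287 and 393 CPM in the knockdown group and 375 and 407 CPM in the control group. Its departures were 0.51 and 0.94 log2 units, and the combined library was above the inhibitor library in both sets. Pmvk, a kinase of the mevalonate pathway, had 0.55 and 0.64. Hmgcs1, Cyp51, Sc5d and Idi1 were among the 9 genes of opposite sign. The fitted median with the block was 0.32, and with 1 library left out it lay between 0.11, without the combined library of set 28, and 0.60, without that of set 20. Without the inhibitor library of set 28 it was 0.21.

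Ribosomal protein genes, 76 tested, had 42 (55.3%) above additive in both sets and 2 (2.63%) below in both. Over all genes tested these shares were 22.2% and 25.9%. The ribosomal protein genes had medians of 0.047 in set 20 and 0.42 in set 28. Their count depended on the scaling, falling to 27 above in both sets when libraries were scaled by their totals alone. That scaling moved the median log2 departure of all genes to 0.10 in set 28 and -0.052 in set 20, and the ribosomal medians were 0.54 in set 28 and 0.014 in set 20. Rps23, a protein of the small subunit, had 0.19 and 0.29, and Rps7, another, 0.14 and 0.53. The fitted median with the block, 0.22, lay between 0.083 without the control library of set 28 and 0.41 without that of set 20.

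**Figure D5:**
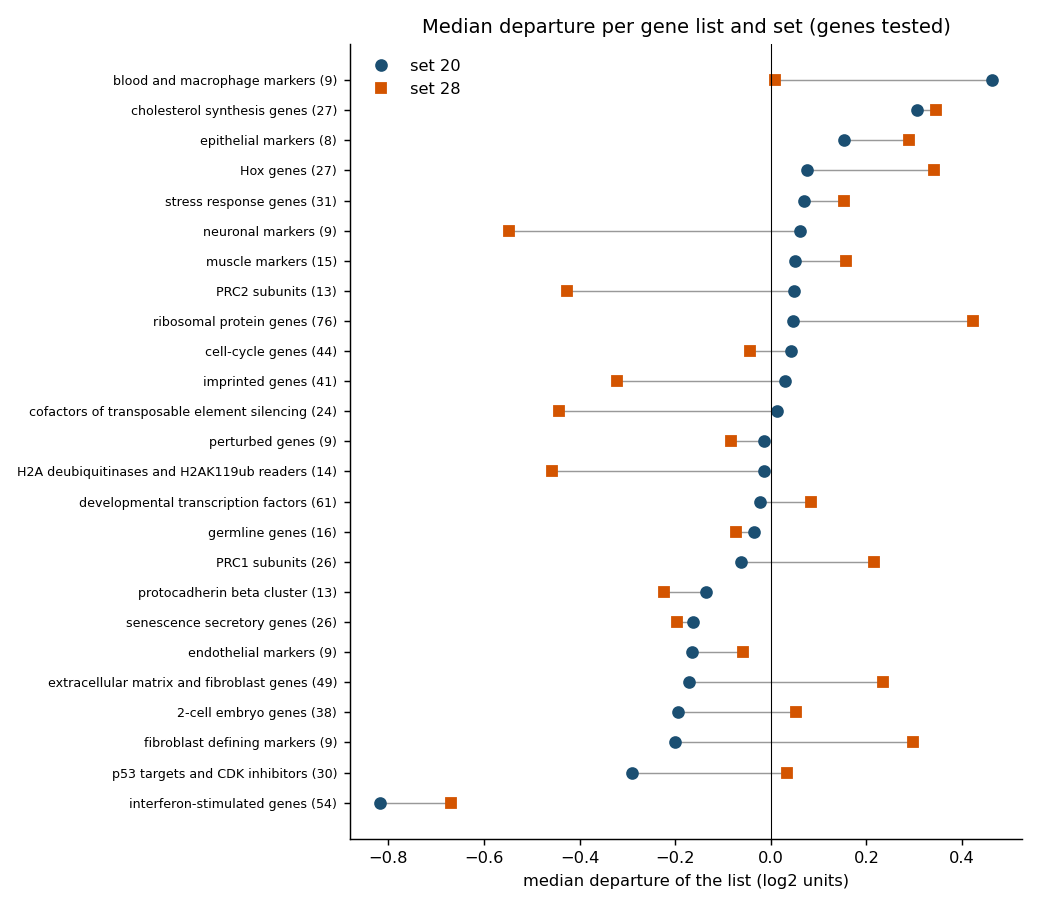
Median log2 departure (horizontal axis, log2 units) of each gene list (vertical axis) in set 20 and set 28. Interferon-stimulated genes lie lowest in both sets (-0.82 and -0.67) and cholesterol synthesis genes above 0 in both (0.31 and 0.35), while each other list is nearer to 0 than those in at least 1 of the sets.

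Lists of genes that Polycomb is known to silence had members on either side. Hox genes, 27 tested, had medians of 0.076 and 0.34, with 12 (44.4%) above additive in both sets and 6 (22.2%) below in both, against 22.2% and 25.9% of all genes tested. In amounts 15 (55.6%) were above the sum in both sets and 4 below, against 25.05% and 23.9% of all genes. The fitted median with the block was 0.11, and it was -0.047 without the control library of set 28 and -0.018 without the combined library of set 20. Hoxc9 was at 5.77 and 5.11 CPM in the combined group, 3.11 and 3.00 CPM in the inhibitor group, 2.52 and 2.56 CPM in the knockdown group and 2.04 and 2.08 CPM in the control group, with departures of 0.58 and 0.46, while Hoxb8 had -0.31 and -1.03. Developmental transcription factors, 61 tested, had 21 (34.4%) above in both sets and 16 (26.2%) below in both. Foxc2 had 0.61 and 0.65, and Sox9, a regulator of cartilage, -0.71 and -0.65. On the linear scale 33 of these 61 (54.1%) were above the sum in both sets, against 25.05% of all genes tested.

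Genes of the 2-cell embryo, 38 tested, had median DS3201 effects of 4.72 and 5.22 with Ring1a shRNA and 5.05 and 4.95 with control shRNA. Their median departures were -0.19 and 0.053. The fitted median with the block was -0.096. With 1 library left out it lay between -0.39, without the control library of set 20, and 0.24, without the knockdown library of set 20. Of these genes 10 (26.3%) were above additive in both sets and 13 (34.2%) below in both, against 22.2% and 25.9% of all genes tested. Counts without DS3201 were at or near 0 for most of them, so that a log2 departure carries a wide counting error, and reads of the near-identical Zscan4 and Usp17l copies could have been split among them. Zscan4c was at 146 and 69.7 CPM in the combined group, 138 and 91.0 CPM in the inhibitor group, 7.39 and 0.605 CPM in the knockdown group and 5.89 and 0.134 CPM in the control group. Dux, the factor that switches this programme on, was at 2.57 and 2.11 CPM in the combined group, 0.962 and 0.441 CPM in the inhibitor group, 0 and 0.269 CPM in the knockdown group and 0.0475 and 0.134 CPM in the control group. Its combined library was the highest of each set, from few counts elsewhere. Usp17ld, among the genes of smallest p, had -1.44 and -1.11 log2 units, and 1.02 and 4.40 CPM.

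Subunits of the silencing complexes themselves differed by set. PRC1 subunits, 26 tested, had 6 (23.1%) above additive in both sets and 8 (30.8%) below in both, with medians of -0.062 and 0.22. PRC2 subunits, 13 tested, had 2 (15.4%) above and 1 (7.69%) below in both, with medians of 0.048 and -0.43. Bmi1, a core PRC1 subunit, was at 182 and 241 CPM in the combined group, 179 and 347 CPM in the inhibitor group, 122 and 187 CPM in the knockdown group and 102 and 166 CPM in the control group, with departures of -0.24 and -0.69. Among p53 targets and CDK inhibitors, 30 tested, 12 (40%) were below additive in both sets and 3 (10%) above, with medians of -0.29 and 0.034. Over all genes tested 25.9% were below in both and 22.2% above. The fitted median of this list with the block was -0.11. With 1 library left out it lay between -0.30, without the combined library of set 28, and 0.13, without that of set 20. Fas, a death receptor, had -0.94 and -0.99, Trp53inp1, a p53-induced nuclear protein, -0.81 and -1.27, and Cdkn1a, the p21 inhibitor, -0.75 and -0.29. No member of any of the 26 lists passed on either scale, with or without the block.

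The other lists of chromatin and silencing genes were mixed. Over all genes tested 22.2% were above additive in both sets and 25.9% below in both. H2A deubiquitinases and readers of the ubiquitinated mark had 4 (28.6%) above and 6 (42.9%) below additive in both sets of 14 tested (medians -0.015 and -0.46). Hcfc1, a chromatin cofactor, had 0.27 and 0.22, and Zrsr2, a splicing factor that the list also held, -0.40 and -0.62. Cofactors of transposable element silencing had 2 (8.33%) above and 8 (33.3%) below additive in both sets of 24 tested (medians 0.014 and -0.44). The fitted median with the block was -0.20, with 20 of 24 below. Without the inhibitor library of set 28 it was 0.054, with 9 of 24 below. Among the cofactors Dnmt3b, a DNA methyltransferase, had -0.80 and -0.50 and Zfp809, which recognizes retroviral sequence, -0.18 and -1.28. Imprinted genes had 7 (17.1%) above and 12 (29.3%) below additive in both sets of 41 tested (medians 0.031 and -0.32), and Peg3 -0.75 and -2.24. Germline genes had 4 (25%) above and 5 (31.25%) below additive in both sets of 16 tested. The protocadherin beta cluster had 1 (7.69%) above and 7 (53.8%) below additive in both sets of 13 tested. In the Rhox cluster the only gene tested was of opposite sign in the 2 sets.

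Fibroblast and growth programmes had members on either side too. Extracellular matrix and fibroblast genes had 11 (22.4%) above and 12 (24.5%) below additive in both sets of 49 tested (medians -0.17 and 0.24). Pdgfra, a growth factor receptor of mesenchymal cells, was at 17.1 and 28.4 CPM in the combined group, 8.94 and 21.9 CPM in the inhibitor group, 0.974 and 7.27 CPM in the knockdown group and 0.190 and 1.95 CPM in the control group, with departures of -0.90 and -1.47. Senescence secretory genes had 8 (30.8%) above and 11 (42.3%) below additive in both sets of 26 tested. Stress response genes had 14 (45.2%) above and 5 (16.1%) below additive in both sets of 31 tested. Cell-cycle genes had 12 (27.3%) above and 9 (20.5%) below additive in both sets of 44 tested. Over all genes tested 22.2% were above additive in both sets and 25.9% below in both. The fitted median of the stress response genes with the block was 0.046, and with 1 library left out it lay between -0.15, without the knockdown library of set 28, and 0.33, without the combined library of set 20. Nqo1, an oxidative stress enzyme, had 0.52 and 1.499, Cxcl12, a stromal chemokine, -0.59 and -0.72 and E2f1, which drives entry into S phase, 0.35 and 0.29. Of the markers of other cell types, neuronal ones had 1 (11.1%) above and 3 (33.3%) below additive in both sets of 9 tested. Their medians were 0.062 and -0.55, while the fitted median with the block was -0.37 with 8 of 9 below. With 1 library left out it lay between -0.80, without the inhibitor library of set 28, and -0.17, without that of set 20. Muscle markers had 6 (40%) above and 4 (26.7%) below additive in both sets of 15 tested. Epithelial ones had 5 (62.5%) above and 2 (25%) below in both of 8 tested. Endothelial ones had 4 (44.4%) above and 5 (55.6%) below in both of 9 tested. Those of blood and macrophages had 3 (33.3%) above and 2 (22.2%) below in both of 9 tested. Of the markers in the deposited table, Slc17a6 of 19 neuronal, Cldn5 of 14 endothelial and Tyrobp and Hbb-bs of 17 blood and macrophage ones had 0 counts in every library. All others, with every muscle and epithelial marker, were counted in at least 1 library.

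The list medians were read again without the inhibitor library of set 28. Without it the fitted median with the block changed sides of 0 in 11 of the 26 lists. Over all genes it was -0.036 with that library and 0.029 without it. Cell-cycle genes had a median of -0.046 with 24 of 44 below additive, and 0.11 with 34 of 44 above without that library. H2A deubiquitinases and readers had -0.22 with it and 0.0083 without it, PRC2 subunits -0.19 and 0.042, PRC1 subunits 0.069 and -0.024, and imprinted genes -0.018 and 0.077. The protocadherin beta cluster had -0.44 with it and 0.34 without it, endothelial markers -0.27 and 0.030, and defining fibroblast markers 0.00034 and -0.26. Developmental transcription factors had -0.012 and 0.082 and the perturbed genes -0.033 and 0.064.

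Genes induced by DS3201 could be read in a set that did not choose them. Those with a DS3201 effect, averaged over both shRNAs, of at least 2 log2 units in set 20 numbered 517, and in set 28 their median log2 departure was -0.16 (quartiles -0.75 and 0.50), with 42.2% above additive against 49.5% of all genes. In amounts their median in set 28 was 0.70 CPM above the sum, with 60.7% above against 50.7% of all genes. The 384 genes chosen in set 28 had, in set 20, a median log2 departure of -0.017 with 48.4% above additive, against 46.8% of all genes, and a median of 1.47 CPM above the sum with 71.9% above, against 50.4%. In set 20 their median levels were 10.6 CPM in the combined group, 8.26 CPM in the inhibitor group, 0.244 CPM in the knockdown group and 0.142 CPM in the control group. Most induced genes of the other set thus lay above the sum of amounts, while their log2 medians were at or below 0. For those chosen in set 28 the log2 median turned to 0.053 with a prior count of 5 and to 0.10 with a threshold of 3 log2 units.

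Genes with as large a DS3201 effect in the downward direction were fewer. Set 28 chose 32, of which 30 were below additive and 2 above it in set 20, where 46.8% of all genes were above. Their median log2 departure was -0.90. Of the 32, 14 were interferon-stimulated genes, a list with all 54 members tested below additive in set 20. Set 20 chose 14, of which 8 were below additive and 6 above it in set 28, where 49.5% of all genes were above. Their median was -0.47, and 0 of them were on the interferon list.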

How the data were processed

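Polyadenylated RNA of 8 libraries was available as raw counts per gene symbol or repeat subfamily, deposited by the authors without normalization. Per the submitters' processing notes, Trim Galore and TopHat2 were used with mm10. The sources used here do not give the counting tool, its annotation or its use of strand. A further 8 columns of the table matched no labelled sample and were not used.

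Low entries were removed with edgeR's filterByExpr by group, which left 15287 of 25215 entries. Libraries were scaled by TMM over all entries, and log2 CPM used a prior count of 2. The log2 departure was tested in R 4.3.3 as the interaction contrast of a quasi-likelihood model over all 8 libraries (edgeR 4.0.16), and the linear one with limma 3.58.1 on CPM. Tests were two-sided, and p was adjusted by Benjamini-Hochberg across the 15287 entries, with a threshold of 0.05. DESeq2 1.42.0 was an alternative, as were other scalings, prior counts, filters and leaving out each library. Counting standard errors are Poisson errors, without replicate spread. The code was tested on simulated data, where the test without the block had too little power with 2 libraries a group to call planted departures, and the block fit had more.

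The labels give each replicate number its own batch but do not tie it to a column prefix. In all pairs of groups the set 20 minus set 28 difference was correlated over genes (r of 0.56 to 0.90), so the prefix served as the replicate block in an alternative fit. Fitted departures printed with an SE are from the fit without the block, so that their SE includes the difference between sets. With the block the SE was 0.66 for Iqgap2, 0.77 for Add3 and 0.63 for Mx2.

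Named genes were the perturbed genes, the 8 of largest shared departure per direction and scale among genes of at least 5 CPM in each set, the 6 most opposed, and up to 2 per list. A few genes that these rules select are not reported here. Others were chosen after their values were seen. The members and lists were chosen with earlier results of these data known. Positions and promoters are from RefSeq (GRCm38.p6), which matched 13528 of the 14393 genes by symbol.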

Additional observations from a re-analysis of the deposited data

Results flagged for a closer look

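For 7 genes reported here the libraries of both sets moved one way under one condition and the opposite way under the other, each by more than its counting error. The difference was tested as the interaction in edgeR, and for none of them did it pass (adjusted p = 1.00, and 0.990 with the replicate block). The effect of the Ring1a shRNA on Cp, ceruloplasmin, was -0.43 and -0.67 log2 units in sets 20 and 28 with DS3201, and 0.79 and 0.98 without it (smaller departure -1.22). For Iigp1, an interferon-induced GTPase, it was -0.93 and -0.74 with DS3201 and 0.24 and 0.66 without it (smaller departure -1.17). B2m (smaller departure -0.12) and Fstl1 (-0.24) had the same pattern of signs at a smaller size. In the opposite order, with effects above 0 with DS3201 and below 0 without it, were Hcfc1 (smaller departure 0.22) and Actg1 (0.16). The effect of DS3201 on Actb was 0.067 and 0.12 with the Ring1a shRNA and -0.074 and -0.30 with control shRNA (smaller departure 0.14).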

How the results depend on the processing

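On the log2 scale 0 genes passed as higher and 0 as lower under every alternative run, which were DESeq2, limma on log2 CPM, the fits with the replicate block, 2 other scalings, no filter on low counts and each library left out. The replicate block gave a smallest adjusted p of 0.990 in edgeR and 0.877 in limma on the linear scale, and changed no call. Counts at an unadjusted p under 0.05 moved from 9 higher and 10 lower to 29 and 103 with the block, and to 1052 and 703 without the inhibitor library of set 20. On the linear scale leaving out 1 library gave 0 to 6 genes higher (6 without the combined library of set 20) and 0 to 1 lower (1 without the inhibitor library of set 28, with the replicate block, chosen after seeing the data), where a lone library is assumed to vary like the other groups.

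The share of genes with the same sign in both sets was 46.9% among genes of at least 5 CPM and 47.0% with library sizes alone on the log2 scale, and 47.5% among genes of at least 5 CPM on the linear one. For induced genes chosen in set 20 and read in set 28, the median log2 departure was -0.27 with a prior count of 0.5, -0.045 with a prior count of 5 and -0.029 with library sizes alone, where the median in amounts was 1.398 CPM. For those chosen in set 28, the median log2 departure was -0.12 with a prior count of 0.5 and 0.10 with a threshold of 3 log2 units. The cause of these shifts was not tested. With 2 libraries a group the test without the block had too little power to call planted departures, and the block fit had more. The absence of calls therefore does not show that the effects add. Log2 departures of genes near 0 counts depend on the prior count.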

Other observations

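Repeat subfamilies enter the linear bookkeeping although they are no part of the gene description. With libraries scaled by their totals, linear departures sum to 0 over all entries of a set, and the genes' share of that sum was -5289 CPM in set 20 and 18625 CPM in set 28, with the repeat subfamilies holding the opposite amount. The absolute departures of the genes summed to 98276 CPM in set 20 and 260261 CPM in set 28.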
